A study of Bos taurus with 10 samples.

Results

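Translation initiation and elongation factors are the soluble proteins that start and extend protein synthesis on the ribosome, and their transcripts were examined here in the right ventricle of newborn calves exposed to low oxygen. The members were all probe sets, the groups of short probes that read a transcript on the array, whose single gene symbol in the platform annotation was EIF or EEF followed by a digit. This gave 67 of 24016 probe sets, which stood for 50 of 9155 named genes. The rule used gene symbols alone, although it was set with earlier results of these data known. Right ventricular tissue of male Holstein calves, frozen right after death, was profiled on Affymetrix Bovine GeneChips with 1 array per calf. The 5 hypoxia calves (173, 178, 192, 199 and 204, PH in the sample titles and HA in the deposited columns) were held for 14 days in low-pressure air equivalent to 4570 m, while the 5 control calves (176, 177, 180, 181 and 195) breathed ambient air at 1525 m. Calves of both groups were age-matched and began at postnatal day 3 to 7, and the labels name no genetic change or drug in either group. Values are RMA log2 expression, differences are hypoxia minus control ± SE, and a probe set passed at an adjusted p of 0.05 (limma, Benjamini-Hochberg over all 24016 probe sets).

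In initiation, eIF2 carries the initiator tRNA to the small ribosomal subunit, eIF3 is the multisubunit scaffold on which the other factors assemble, and the eIF4 proteins bind the mRNA cap and bring the message to that subunit. The exchange factor eIF2B recharges eIF2 with GTP, and kinases that phosphorylate eIF2 block this step under stress. During elongation, eEF1 delivers aminoacyl-tRNA and eEF2 moves the ribosome along the message. In heart muscle the capacity and rate of this machinery are known to change with growth and with load.

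Array medians lay between 5.48 and 5.54. On the first principal component, which held 30.4% of the variance, hypoxia calf 199 scored 46.1, hypoxia calf 178 scored 34.4, hypoxia calves 173, 192 and 204 scored 9.79 to 13.9 and control calves scored -28.0 to -13.6. The 7 measured ventricular myocyte markers had a mean log2 level of 13.6 to 13.8 in hypoxia calves and 13.6 to 13.8 in control calves. On their brightest probe sets 0 of the 7 passed in limma (0 also had an unadjusted p under 0.05), and MYH7, the slow myosin heavy chain, passed on 1 of its 3 probe sets. These levels lie near the top of the array's range, where differences can be compressed. The 3 measured atrial myocyte markers had list means of 7.18 to 9.15 in hypoxia calves and 5.80 to 7.21 in control calves, and 0 passed (1 higher at an unadjusted p under 0.05). That 1 was NPPA, which differed by 2.13 ± 0.63, while MYL4 and SLN differed by 0.62 ± 0.41 and 0.26 ± 0.26. Markers of dividing cells moved with the groups, with 7 of 8 higher in hypoxia and list means of 5.56 to 7.06 in hypoxia calves against 4.48 to 4.76 in control calves. Among macrophage markers 1 of 4 rose and among fibroblast markers 1 of 6 fell, while 0 of 6 lymphocyte, 0 of 6 endothelial and 0 of 6 smooth muscle markers passed. At an unadjusted p under 0.05, 2 macrophage, 2 endothelial and 2 smooth muscle markers were higher. At the same level 2 fibroblast and 3 lymphocyte markers were lower. Over all named genes 2.17% rose and 1.49% fell at an adjusted p of 0.05. At the unadjusted level 11.1% of them were higher and 11.3% were lower. List means of macrophage markers were 6.57 to 7.59 in hypoxia calves and 5.79 to 6.75 in control calves, and those of lymphocyte markers were 3.88 to 4.50 in hypoxia calves and 4.44 to 4.99 in control calves. The 3′ minus 5′ value of the beta-actin control probe sets, a sign of RNA integrity, did not overlap between the groups. It was 1.51 to 2.55 in hypoxia calves and 2.81 to 4.35 in control calves (exact two-sided permutation test, p = 0.00794, adjusted p = 0.183 over 23 pairs of control probe sets). That p is the smallest that 5 against 5 calves can give, so 1 such pair alone among 23 could not pass once adjusted. Of the 23 pairs, 6 are named for bovine genes, and the ranges of the bovine pairs other than beta-actin overlapped. The part of these shifts in the results on translation factors was not tested. In whole tissue, fewer cells of a type and less RNA per cell cannot be told apart.

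Of the 67 probe sets, 3 fell in hypoxia and 0 rose in limma, against 1.07% of all probe sets that fell and 1.65% that rose. The 3 were both probe sets of EIF3B and the probe set of EIF2B4, and 4.48% of the members passed against 2.71% of all probe sets. At an unadjusted p under 0.05, 15 members were lower and 6 were higher (8.98% and 8.69% of all probe sets). A difference below 0 was found for 44 of the 67, against 54.7% of all probe sets, and for 7 of the 67 all hypoxia calves lay below all control calves, against 2.75%. With 1 probe set per gene, the brightest, 2 of 50 genes passed, where 3.66% of all named genes did. Both fell (1.49% of all named genes fell and 2.17% rose). At an unadjusted p under 0.05, 14 of the 50 genes were lower and 4 were higher, beside 11.3% and 11.1% of all named genes. The median difference over the 50 genes was -0.11, beside -0.015 over all named genes, and single differences ran from -0.51 for EIF3B to 0.58 for EIF5. The median size of the difference, whatever its sign, was 0.17 for the 50 genes and 0.15 for all named genes. The 50 genes were brighter than most, with a median log2 level of 9.615 beside 7.035 for all named genes. Of the 50, 43 lay above the median level of the named genes. The shares over all probe sets and all named genes given here are not matched for level. All hypoxia calves lay below all control calves for 6 of the 50 genes (EIF3B, EIF3G, EIF3K, EIF2B4, EIF2AK1 and EEF2) and above them for EIF3A alone, while 3.72% and 3.58% of all named genes separated in these ways. The plot of differences by role shows how the genes spread around 0 within each step of translation.

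**Figure D1:**
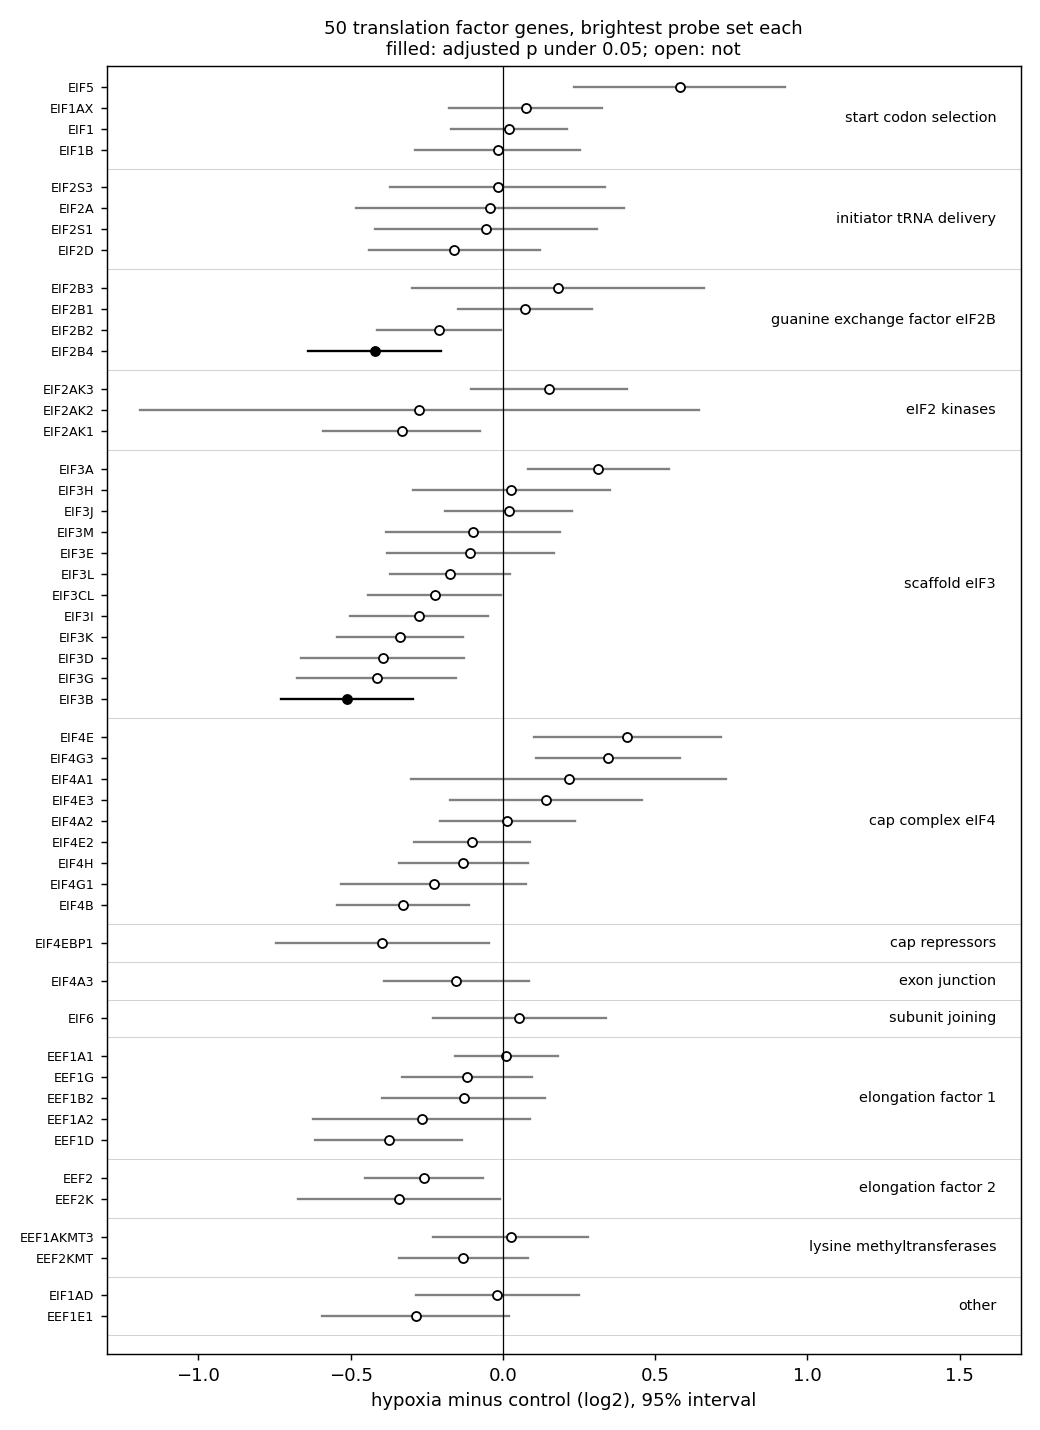
Difference between hypoxia and control calves on the log2 scale (x axis) for each of 50 translation factor genes (y axis, grouped by role), with bars for the 95% interval and n = 5 calves per group. Filled points mark the genes that passed, EIF3B and EIF2B4, and the open points of EIF5, EIF4E and EIF4G3 lie farthest to the right.

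Among all named genes, 3.72% had all hypoxia calves below all control calves. The eIF3 scaffold, with 12 of the 50 genes, held 3 of the 6 member genes that separated in this way. Its subunit EIF3B, which with EIF3G and EIF3I forms the part of the complex that reaches towards the mRNA channel, had the largest decrease among the members. On the brighter of its 2 probe sets EIF3B read 9.09, 9.39, 9.52, 9.48 and 9.33 in hypoxia calves 173, 178, 192, 199 and 204, against 9.87, 9.86, 9.99, 9.92 and 9.72 in control calves 176, 177, 180, 181 and 195. All hypoxia calves lay below all control calves, with calf 173 lowest. The means were 9.36 ± 0.17 in hypoxia and 9.87 ± 0.10 in control (SD, n = 5 each), a difference of -0.51 ± 0.10, or 1.43-fold lower (limma, adjusted p = 0.0238). The dimmer probe set, whose suffix _s_at marks probes that can match more than 1 transcript, read 5.95, 6.01, 6.07, 6.04 and 6.09 in those hypoxia calves against 6.82, 6.30, 6.69, 6.75 and 6.47 in those control calves. It fell by 0.58 ± 0.11 on the log2 scale (adjusted p = 0.0205), with the hypoxia calves close together and the control calves spread more widely, as the plot of values by calf shows.

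Leaving out control calf 181 ended the calls on both EIF3B probe sets (limma, adjusted p = 0.0628 and 0.0585), and leaving out control calf 177 or 180 or hypoxia calf 204 ended that on the brighter one (adjusted p = 0.0538, 0.0504 and 0.0518), while the brighter probe set's difference lay between -0.55 and -0.44 whichever calf was left out. With the run of calf numbers (173 to 181, and 192 to 204) as a block the differences were -0.53 and -0.57 (adjusted p = 0.0556 and 0.0569). The brighter probe set differed by -0.67 in the lower run of 2 hypoxia and 4 control calves, and by -0.28 in the upper run of 3 hypoxia calves and 1 control calf. Without hypoxia calves 178 and 199 the differences were -0.56 and -0.57 and neither passed (adjusted p = 0.0765 and 0.0982).

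**Figure D2:**
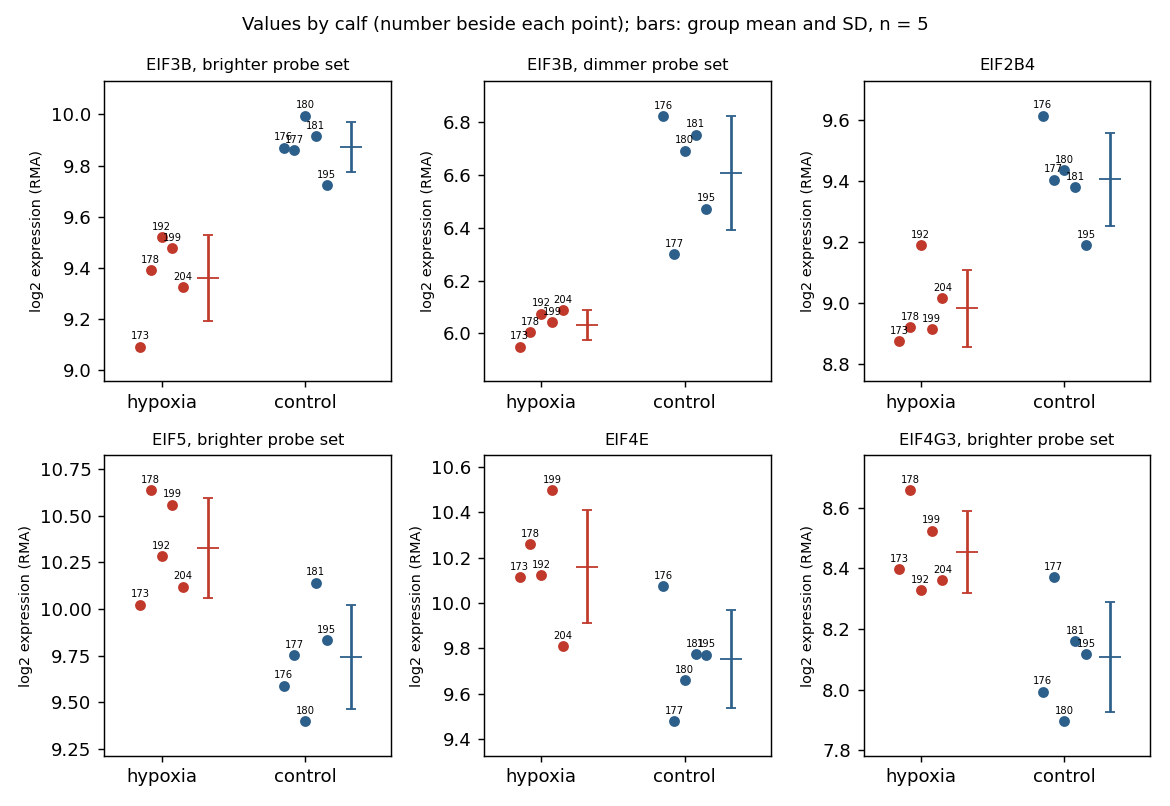
RMA log2 expression (y axis) by calf for 6 probe sets in hypoxia and control calves (x axis), with calf numbers beside the points and bars for the group mean and SD, n = 5 each. Hypoxia calves lie below the control calves for both EIF3B probe sets and EIF2B4, and the groups overlap for EIF5, EIF4E and EIF4G3.

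Of 12 eIF3 subunits measured, EIF3B fell and 0 rose in limma, and 9 of the 12 had a difference below 0, where 52.8% of all named genes did. Of the 12, 6 were lower and 1 was higher at an unadjusted p under 0.05, beside 11.3% and 11.1% of all named genes. The median over the 12 subunits was -0.20. EIF3G, the RNA-binding partner of EIF3B and EIF3I, read 10.75, 10.36, 10.93, 10.96 and 10.80 in hypoxia calves 173, 178, 192, 199 and 204, against 11.35, 11.06, 11.21, 11.12 and 11.12 in control calves 176, 177, 180, 181 and 195. Its groups did not overlap, and hypoxia calf 178 was lowest. The difference of -0.41 ± 0.12 did not pass (adjusted p = 0.0930). EIF3I, a propeller-shaped subunit, differed by -0.27 ± 0.10 (adjusted p = 0.189), with 4 of 5 hypoxia calves below the lowest control calf. EIF3D, a subunit that in human cells can itself bind the cap of certain messages, differed by -0.39 ± 0.12 (adjusted p = 0.115), and 4 of 5 hypoxia calves lay below all control calves.

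The octameric core of eIF3 was less even. EIF3K, a small core subunit, read 10.97, 11.05, 11.11, 11.14 and 10.82 in hypoxia calves 173, 178, 192, 199 and 204, against 11.53, 11.41, 11.32, 11.25 and 11.27 in control calves 176, 177, 180, 181 and 195. Its groups did not overlap, but the difference of -0.34 ± 0.09 did not pass (limma, adjusted p = 0.0822). EIF3A, the largest subunit, went the other way and read 9.997, 10.28, 10.02, 10.05 and 10.22 in those hypoxia calves, against 9.51, 9.90, 9.89, 9.75 and 9.95 in those control calves. All hypoxia calves lay above all control calves, and the difference of 0.31 ± 0.11 did not pass (adjusted p = 0.142). A second EIF3A probe set near the bottom of the signal range, with a mean of 2.26, differed by -0.05. EIF3E, EIF3M and EIF3H of the core and the loosely bound EIF3J had differences of -0.11, -0.10, 0.03 and 0.02, with groups that overlapped. EIF3L differed by -0.17 ± 0.09 and the probe set named EIF3CL by -0.22 ± 0.10 (adjusted p = 0.355 and 0.270). EIF3C and EIF3CL are near-identical gene copies in humans, so it is uncertain which copy that probe set reads.

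Taken calf by calf, the median over the 12 subunits, each set against its control mean, was -0.18, -0.22, -0.15, -0.07 and -0.32 in hypoxia calves 173, 178, 192, 199 and 204, and 0.17, -0.04, 0.10, -0.05 and -0.13 in control calves 176, 177, 180, 181 and 195. Hypoxia calf 199 lay within the range of the control calves on this measure, as did control calf 195 within that of the hypoxia calves. For EIF3B, EIF3G and EIF3I the same median was -0.42, -0.48, -0.35, -0.33 and -0.42 in the hypoxia calves and -0.06 to 0.18 in the control calves. This grouping of 3 subunits was chosen after their values were seen and is a description, as is the plot of eIF3 subunits by calf.

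**Figure D3:**
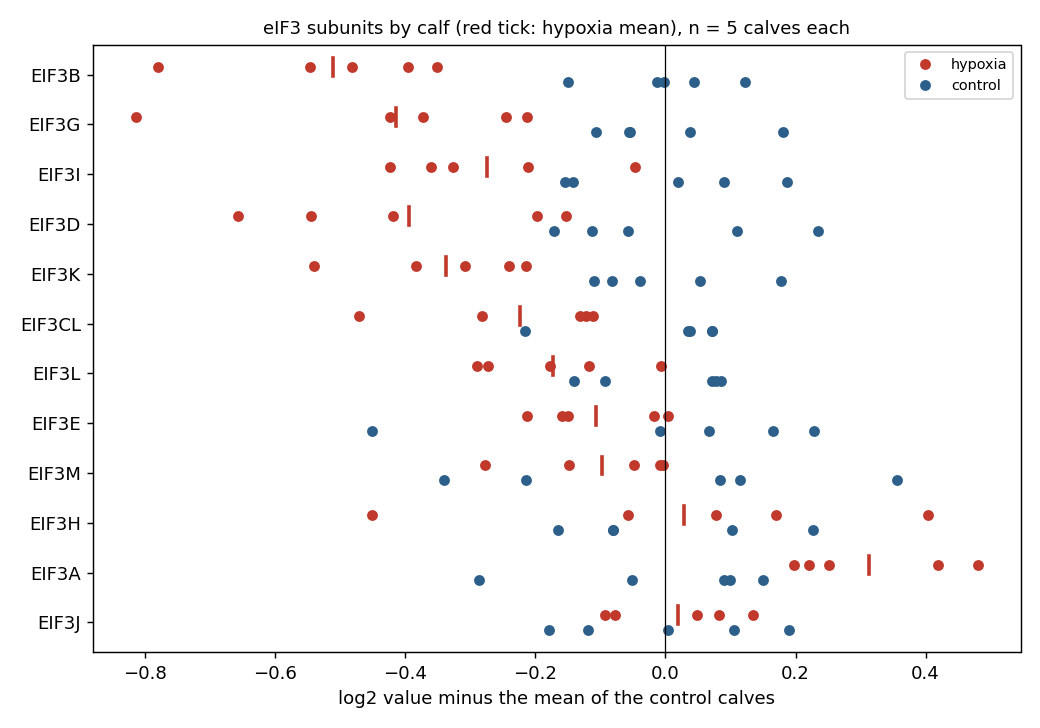
Log2 value of each calf minus the mean of the control calves (x axis) for 12 eIF3 subunits (y axis), with hypoxia calves in red above control calves in blue and a tick at the hypoxia mean, n = 5 calves each. The EIF3B, EIF3G and EIF3K points of hypoxia calves lie left of all control points, and those of EIF3A lie right of them.

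EIF2B4, the delta subunit of eIF2B and part of the regulatory core that senses phosphorylated eIF2, was the other gene that fell. It read 8.88, 8.92, 9.19, 8.91 and 9.02 in hypoxia calves 173, 178, 192, 199 and 204, against 9.61, 9.40, 9.43, 9.38 and 9.19 in control calves 176, 177, 180, 181 and 195. The groups only just failed to overlap, since hypoxia calf 192 and control calf 195 both read 9.19. The means were 8.98 ± 0.13 in hypoxia and 9.40 ± 0.15 in control (SD, n = 5 each), a difference of -0.42 ± 0.10, or 1.34-fold lower (limma, adjusted p = 0.0482). The call held in only 2 of 10 fits that left out a calf, those without hypoxia calf 192 or control calf 195 (highest adjusted p in the others, 0.101, without hypoxia calf 178). It also ended with another variance model (adjusted p = 0.0681), with array weights (0.0576), with the calf number block (0.110) and without hypoxia calves 178 and 199 (0.218). The difference was -0.56 in the lower run of calf numbers and -0.15 in the upper run.

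The other 3 subunits of eIF2B that were measured did not pass. Of all 4, EIF2B4 and EIF2B2 were lower at an unadjusted p under 0.05 and 0 were higher (11.3% and 11.1% of all named genes). EIF2B2, the beta subunit of the same core, differed by -0.21 ± 0.09 (limma, adjusted p = 0.266), and EIF2B1, the alpha subunit, by 0.07 ± 0.10. EIF2B3, a subunit of the catalytic arms, read 9.17 in hypoxia calf 178, 9.19 in calf 199 and 8.09 to 8.50 in calves 173, 192 and 204, against 8.10 to 8.75 in control calves. Its difference was 0.18 ± 0.22, and its dimmer probe set differed by -0.08. The catalytic subunit EIF2B5 was not analysed here.

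The transcripts of eIF2 itself differed little. EIF2S1, the alpha subunit that carries the regulatory phosphorylation site, averaged 9.50 ± 0.29 in hypoxia and 9.55 ± 0.29 in control (SD, n = 5 each), a difference of -0.05 with a 95% interval of -0.42 to 0.31. EIF2S3, the gamma subunit that binds GTP and the tRNA, differed by -0.02 on its brighter probe set and by 0.16 on the dimmer. EIF2A and EIF2D, alternative carriers of initiator tRNA, differed by -0.04 and -0.16, and 0 of these 4 genes passed in limma. The count was also 0 at an unadjusted p under 0.05, where 11.3% of all named genes were lower and 11.1% were higher.

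Of the kinases that phosphorylate eIF2, 3 were measured and 0 passed in limma, while EIF2AK4, the amino acid sensor GCN2, was not analysed here. Of the 3, 1 was lower and 0 were higher at an unadjusted p under 0.05, beside 11.3% and 11.1% of all named genes. EIF2AK1, the heme-regulated kinase HRI, read 7.10, 6.57, 7.04, 7.16 and 6.89 in hypoxia calves 173, 178, 192, 199 and 204, against 7.16, 7.37, 7.18, 7.32 and 7.38 in control calves 176, 177, 180, 181 and 195. The groups did not overlap, although hypoxia calf 199 and control calf 176 both read 7.16. The difference was -0.33 ± 0.12 and did not pass, and its dimmer probe set differed by -0.13. EIF2AK3, the endoplasmic reticulum stress kinase PERK, differed by 0.15 ± 0.12 (adjusted p = 0.559). EIF2AK2, the double-stranded RNA kinase PKR, had the widest range of the 50 genes, with 7.39 in control calf 180 against 4.59 to 5.83 in the other control calves and 5.06 to 5.90 in hypoxia calves. Its 2 probe sets differed in opposite directions, by -0.27 ± 0.42 and 0.17.

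Start codon selection held the member with the largest positive difference. EIF5, the activator of GTP hydrolysis on eIF2, read 10.02, 10.64, 10.28, 10.56 and 10.12 in hypoxia calves 173, 178, 192, 199 and 204, against 9.59, 9.75, 9.40, 10.14 and 9.83 in control calves 176, 177, 180, 181 and 195. Hypoxia calves 173 and 204 lay below control calf 181, and the other 3 lay above all controls. The difference was 0.58 ± 0.16 (1.5-fold, 95% interval 0.23 to 0.93) and did not pass (limma, adjusted p = 0.0778). A dimmer EIF5 probe set differed by 0.45 (adjusted p = 0.220). EIF1 and EIF1AX, which hold the scanning ribosome in its open state, differed by 0.02 ± 0.09 and 0.08 ± 0.11, with 95% intervals of -0.17 to 0.21 and -0.18 to 0.33, and EIF1B, a close relative of EIF1, by -0.02.

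Of 9 genes of the cap complex, which holds cap-binding proteins, scaffolds, helicases and their cofactors, 0 passed in limma (3 at an unadjusted p under 0.05, EIF4E and EIF4G3 higher and EIF4B lower). Over all named genes 11.1% were higher and 11.3% were lower at that unadjusted level. EIF4E, the cap-binding protein, read 10.11, 10.26, 10.12, 10.50 and 9.81 in hypoxia calves 173, 178, 192, 199 and 204, against 10.07, 9.48, 9.66, 9.77 and 9.77 in control calves 176, 177, 180, 181 and 195. Control calf 176 lay above hypoxia calf 204, and the other 4 hypoxia calves lay above all controls. The difference was 0.41 ± 0.14 (1.33-fold, adjusted p = 0.148). The array also carries 3 manufacturer's control probe sets named for eIF-4E, which have no gene symbol and are no members, placed towards the 3′ end, the middle and the 5′ end of the transcript. They averaged 9.80, 7.73 and 5.74 in hypoxia and 9.52, 7.33 and 5.15 in control, with differences of 0.28, 0.40 and 0.59 (exact two-sided permutation tests, p = 0.0714, 0.0159 and 0.0238, and 0.143, 0.0714 and 0.0714 when adjusted over 6 such probe sets). The 3′ minus 5′ difference of eIF-4E was 3.90 to 4.28 in hypoxia calves and 3.995 to 5.05 in control calves (exact p = 0.151).

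EIF4EBP1, the repressor that releases eIF4E when phosphorylated by mTOR, read 8.48, 8.13, 8.61, 8.73 and 8.18 in hypoxia calves 173, 178, 192, 199 and 204, against 9.23, 8.50, 8.997, 8.73 and 8.65 in control calves 176, 177, 180, 181 and 195. Hypoxia calves 173, 178 and 204 lay below all controls, and calves 192 and 199 lay among them. The difference was -0.40 ± 0.16 (limma, adjusted p = 0.221). EIF4G3, a scaffold that joins eIF4E to eIF3, differed by 0.35 ± 0.11 (adjusted p = 0.115) and by 0.47 on its dimmer probe set, whereas EIF4G1, the related main scaffold, differed by -0.23 ± 0.14 (adjusted p = 0.443). EIF4B, a cofactor of the helicase eIF4A, differed by -0.33 ± 0.10 (adjusted p = 0.103), with 4 of 5 hypoxia calves below all controls.

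Of the helicases, EIF4A1 read 9.30, 9.93, 9.50, 10.29 and 9.17 in hypoxia calves 173, 178, 192, 199 and 204, against 8.82 to 9.79 in control calves, and differed by 0.22 ± 0.24. Its highest values came from hypoxia calves 199 and 178. EIF4A2, its close paralog, differed by 0.02 with a 95% interval of -0.21 to 0.24. EIF4E3, an atypical cap-binding relative, differed by 0.14 ± 0.14, and EIF4H, a second cofactor of eIF4A, by -0.13. EIF4A3, which by its name belongs to this family but works in the exon junction complex, differed by -0.15 ± 0.11. EIF6, which keeps the ribosomal subunits apart, differed by 0.05 ± 0.13.

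Of 7 elongation factor genes 0 passed in limma, and 3 were lower at an unadjusted p under 0.05 (11.3% of all named genes were). EEF2, the translocase, read 12.87, 12.61, 12.68, 12.92 and 12.84 in hypoxia calves 173, 178, 192, 199 and 204, against 12.92, 13.10, 13.04, 13.05 and 13.09 in control calves 176, 177, 180, 181 and 195. The groups did not overlap, with hypoxia calf 199 and control calf 176 both at 12.92. The difference was -0.26 ± 0.09 (1.20-fold lower, adjusted p = 0.147), in a bright range where RMA can compress differences. EEF2K, the kinase that inhibits eEF2, differed by -0.34 ± 0.15 on its brighter probe set and by -0.16 on the dimmer, and did not pass. Its lowest value, 8.57, came from hypoxia calf 199, beside 8.98 to 9.35 in the remaining hypoxia calves and 9.17 to 9.64 in control calves.

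EEF1D, a subunit of the exchange factor that recharges eEF1A, read 12.20, 12.03, 12.15, 12.05 and 11.996 in hypoxia calves 173, 178, 192, 199 and 204, against 12.68, 12.40, 12.58, 12.51 and 12.12 in control calves 176, 177, 180, 181 and 195. Control calf 195 lay among the hypoxia calves and the other 4 controls lay above them. The difference of -0.38 ± 0.11 did not pass (limma, adjusted p = 0.0963), but it passed without control calf 195 (-0.46, adjusted p = 0.0331). The other exchange subunits EEF1B2 and EEF1G differed by -0.13 ± 0.12 and -0.12 ± 0.10.

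EEF1A1, the common isoform of the tRNA carrier, had the narrowest range of the 50 genes and averaged 13.8 in both groups. Its difference was 0.01 with a 95% interval of -0.16 to 0.18, at a level near the top of the array's range where differences can be compressed. A dimmer EEF1A1 probe set, with a mean of 11.5, differed by -0.11, and 3 control probe sets named for elongation factor 1 alpha differed by -0.12, 0.01 and -0.13 (exact permutation p = 0.246, 0.873 and 0.516). EEF1A2, the isoform of adult heart, skeletal muscle and neurons in mammals, read 7.52, 6.86, 7.48, 7.59 and 7.37 in hypoxia calves 173, 178, 192, 199 and 204, against 7.85, 7.94, 7.29, 7.64 and 7.43 in control calves 176, 177, 180, 181 and 195. The groups overlapped, with hypoxia calf 178 lowest, and the difference was -0.27 ± 0.16 (limma, adjusted p = 0.446). EEF1A2 minus EEF1A1 within an array differed by -0.28 between the groups (exact two-sided permutation p = 0.222, where 0.00794 is the smallest that 5 against 5 calves can give), which nearly restates EEF1A2 alone.

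**Figure D4:**
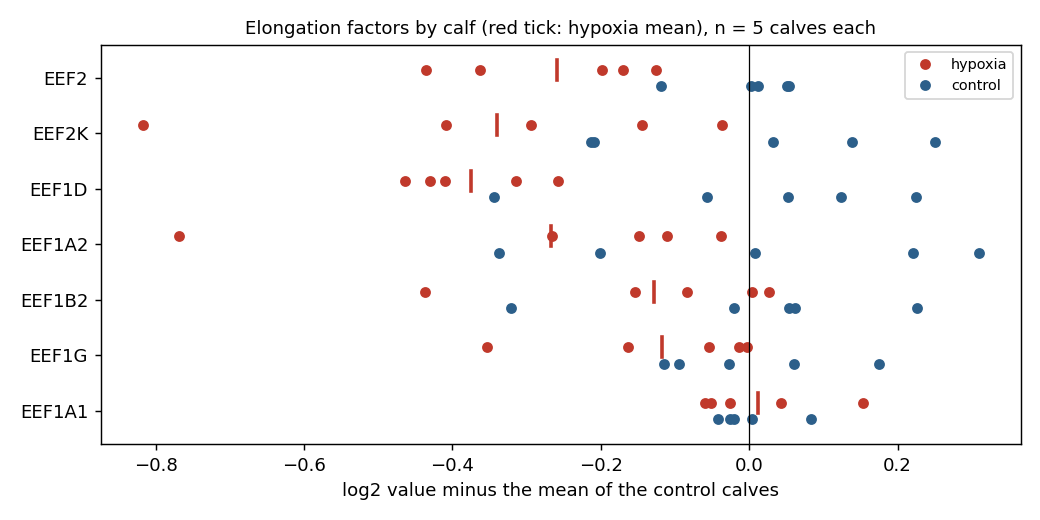
Log2 value of each calf minus the mean of the control calves (x axis) for 7 elongation factor genes (y axis), with hypoxia calves in red above control calves in blue and a tick at the hypoxia mean, n = 5 calves each. EEF2 points of hypoxia calves lie left of all control points, and EEF1A1 points cluster around 0 in both groups.

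Other members stood outside these steps. EEF1E1, a component of the multi-tRNA synthetase complex, differed by -0.29 ± 0.14 (limma, adjusted p = 0.323), and EIF1AD, a protein related by domain to eIF1A, by -0.02. The lysine methyltransferases EEF1AKMT3 and EEF2KMT, which modify eEF1A and eEF2, had means of 4.32 and 3.07, low in the signal range, and differed by 0.03 and -0.13.

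Genes with more than 1 probe set gave a check within the array. Of 16 such genes, 9 had the same sign on all their probe sets, and of 17 pairs of a brightest and a dimmer probe set 10 agreed in sign. EIF3B, EIF5 and EIF4G3 had the largest differences that agreed, while EIF4E2, a cap-binding relative of EIF4E, differed by -0.10 on its brighter and 0.36 on its dimmer probe set. The plot of probe set pairs sets these differences against each other.

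**Figure D5:**
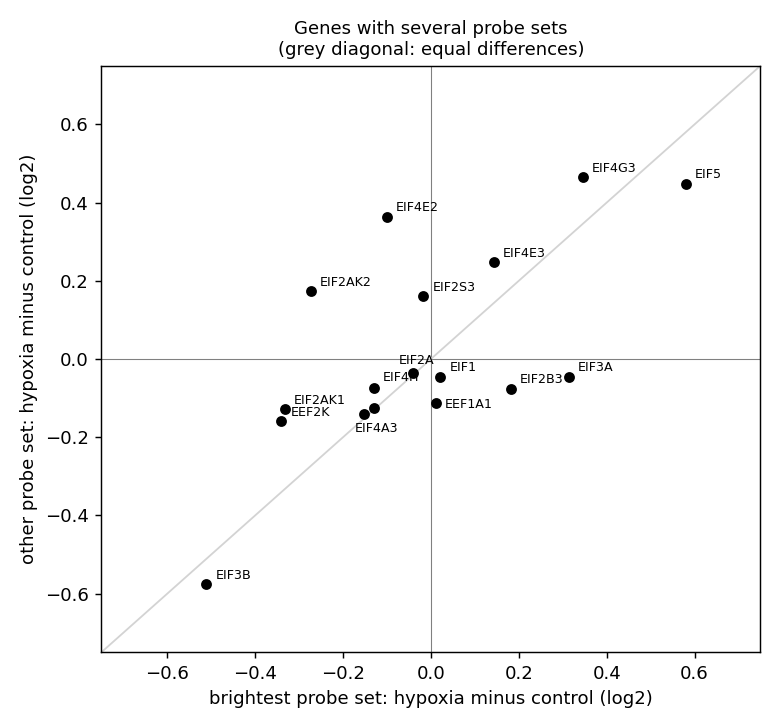
Hypoxia minus control on the log2 scale for the brightest probe set of a gene (x axis) against each of its other probe sets (y axis), over 17 pairs from 16 genes, with the diagonal marking equal differences. EIF3B at the lower left and EIF5 and EIF4G3 at the upper right lie near the diagonal, and 7 pairs lie in the quadrants of opposite sign.

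Spread between calves was similar in the groups, with a median SD over the 50 genes of 0.16 in hypoxia and 0.17 in control, beside 0.19 and 0.20 over all named genes. Among the hypoxia calves, calf 199 held the highest value for 24 of the 50 genes and calf 204 the lowest for 22. Of the control calves, 176 and 180 each held the highest of all 10 values for 13 genes. The median deviation of the 50 genes from their control means was -0.13, -0.14, -0.06, -0.01 and -0.21 in hypoxia calves 173, 178, 192, 199 and 204, and -0.08 to 0.10 in control calves, so 2 hypoxia calves lay within the control range.

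Genes around these factors in the pathway were read from lists drawn up from textbook knowledge, with earlier results of these data known. Beside each list stand the shares over all named genes, of which 3.66% passed. At an unadjusted p under 0.05, 11.3% of all named genes were lower and 11.1% were higher. Of 25 measured genes of mTOR signalling and S6 kinases, 1 fell and 0 rose in limma (4 lower and 1 higher at an unadjusted p under 0.05), with a median difference of -0.11. The one that fell was DDIT4L, an inhibitor of mTOR signalling, at 8.315, 9.015, 7.824, 6.895 and 7.794 in hypoxia calves 173, 178, 192, 199 and 204, against 9.763, 9.422, 11.047, 10.15 and 9.603 in control calves 176, 177, 180, 181 and 195. The groups did not overlap, and the difference was -2.03 ± 0.38 (adjusted p = 0.0211). The mean of the 25 genes was 8.29 to 8.39 in hypoxia calves and 8.45 to 8.59 in control calves, and without DDIT4L the ranges were 8.27 to 8.41 in hypoxia calves and 8.40 to 8.53 in control calves, which overlap.

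Of 24 measured genes of the integrated stress response, the programme set off by phosphorylated eIF2, 0 passed in limma (1 higher and 1 lower at an unadjusted p under 0.05), with a median difference of 0.13. CEBPB, a transcription factor of this response, differed by -0.85 ± 0.21 on its brightest probe set (adjusted p = 0.0567) and passed on 1 of 2. MTHFD2, a mitochondrial folate enzyme, read 6.89 in hypoxia calf 178, 6.35 in calf 199 and 4.75 to 5.36 in calves 173, 192 and 204, against 4.62 to 4.80 in control calves (adjusted p = 0.196). Among 18 measured cytosolic aminoacyl-tRNA synthetases and cofactors 0 passed (1 higher and 1 lower at an unadjusted p under 0.05), with a median of 0.14. The lysyl-tRNA synthetase KARS1 differed by -0.48 ± 0.12 (adjusted p = 0.0675), with hypoxia calves at 10.045 to 10.467 and control calves at 10.464 to 11.005, which barely overlap. The glycyl-tRNA synthetase GARS1 differed by 0.55 ± 0.19 (adjusted p = 0.148) and was highest in hypoxia calves 178 and 199, at 9.92 and 9.82.

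Of 22 measured termination, recycling, poly(A)-binding and other initiation proteins 0 passed in limma (1 higher and 2 lower at an unadjusted p under 0.05), with a median of 0.01, and BZW1, a protein related to eIF5, passed on its dimmer probe set of 2. CYFIP1, a partner of eIF4E, differed by 0.24 ± 0.10, and DHPS, the enzyme that begins the hypusine modification of eIF5A, by -0.35 ± 0.15 (adjusted p = 0.213 and 0.242). Mitochondria use their own factors, and 0 of 12 measured ones passed (0 higher and 1 lower at an unadjusted p under 0.05), with a median of -0.009. TSFM and TUFM, the mitochondrial elongation factors, differed by -0.22 ± 0.09 and -0.23 ± 0.12 (adjusted p = 0.250 and 0.348).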

How the data were processed

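Values are those the authors deposited, log2 expression made with RMA (background correction, quantile normalization, probe summary) per the submitters' processing notes, whose software version is not given in the sources used here. Since RMA draws arrays to a common distribution, a shift of all transcripts would be removed. Of 24128 probe sets, 112 Affymetrix controls were left out and 24016 tested, unfiltered. All 67 member probe sets matched a gene identifier of ARS-UCD2.0, with 0 symbols changed, and 2 further probe sets naming such a factor beside another gene were left out. Probe set coordinates and sequences were not used. A gene stands on its brightest probe set over the 10 arrays. Precision is limited by their number.

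Calves were grouped by title and matched to columns by number. Tests used limma 3.58.1 in R 4.3.3 (lmFit, eBayes without trend) with Benjamini-Hochberg adjustment over all probe sets, checked on simulated data, and exact two-sided permutation tests over 252 arrangements for single values. Figures used matplotlib 3.10.9.

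Members and lists were chosen with earlier results of these data known. Named were genes that passed, the 10 largest increases and decreases, and central factors; of other lists, those that passed or the 2 with the smallest p. Further members completing a complex, values within runs of calf numbers, the mTOR list without DDIT4L and the control probe sets were added after values were seen. Alternatives covered scaling, array weights, the variance model, a filter on dim probe sets, a block for calf number runs, the threshold, a gene's mean probe set, and calves left out.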

Additional observations from a re-analysis of the deposited data

Results flagged for a closer look

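Of 62 sets of 5 calves examined for a calf far from its group (30 named genes and the difference EEF1A2 minus EEF1A1, in each group), 2 held such a calf, and chance alone gives about 1 in 20. EIF4E3 read 9.23 in control calf 180 against 8.47 to 8.64 in the other control calves. EEF1A2 minus EEF1A1 within an array was -7.08 in hypoxia calf 178 against -6.36 to -6.21 in the other hypoxia calves.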

How the results depend on the processing

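The same 3 member probe sets passed with median centring, quantile normalization and a filter on dim probe sets, and EIF3B's 2 alone with another variance model or array weights. The deposited RMA values were already quantile normalized, so median centring and a further quantile normalization could change little. With the block for calf number runs 0 of 67 members and 217 of all probe sets passed in limma, without hypoxia calves 178 and 199 the counts were 0 and 155, and at an adjusted p of 0.01 they were 0 and 77. At an unadjusted p under 0.05 there were 18 members with the block, 14 without those calves and 21 in all calves. Leaving out 1 calf at a time gave 0 to 4 members and 241 to 605 of all probe sets, with 0 members without control calf 181 and 1 without hypoxia calf 204 or control calf 177 or 180, against 652 probe sets and 3 members in all calves. The median over the 50 genes stayed between -0.15 and -0.07 with 1 calf left out. EIF3B and EIF2B4 kept their sign in all alternatives run. Of the 28 named genes that did not pass, 9 changed sign in 23 of 503 fits, most often EEF1A1 and EIF4A2, and only EEF1D passed in any. EEF1A2 minus EEF1A1 stayed between -0.38 and -0.12 (exact permutation p = 0.0952 to 0.468) with 1 calf left out. No paired analysis was run because the labels state no pairing of calves. The cause of these changes was not tested, and the fits that left out calves also rest on fewer calves.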
